A study of Homo sapiens with 6 samples.

Results

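SLC36A1 encodes a proton-coupled amino acid transporter of the lysosome, and it was examined here with 9 genes of the machinery that senses amino acids at the lysosomal surface for the kinase complex mTORC1. The 10 genes, taken from a list by name, were SLC36A1, SLC36A4, SLC38A9, LAMTOR1, RRAGA, RRAGC, RRAGD, FLCN, TFEB and MTOR. All 10 had a row among the 17042 genes of the deposited table, and all 10 were among the 13405 genes left after a filter on low counts. SLC36A1 was chosen by its measured rise in these same libraries, and the other 9 were listed for their place in the pathway with results of this comparison known. The changes of the 10 genes are therefore given as a description, with intervals but no p-value.

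Messenger RNA was sequenced in 6 libraries from THP-1, an established line of human leukaemic monocytes. All were treated for 24 hours with PMA, a phorbol ester that turns these cells into macrophages, at 100 ng/mL, and then for 24 hours with interleukin-4 (IL-4) at 20 ng/mL. The 3 control libraries are labelled wild type, and the labels do not say what was transfected into them. The 3 knockdown libraries come from cells given small interfering RNA (siRNA) against RP11-184M15.1, a long noncoding RNA, with a lipid reagent before IL-4. Whether replicates were grown separately is not stated, so the p-values reflect only how these libraries vary, possibly for technical reasons. In whole cultures, fewer cells that express a gene and less RNA per cell cannot be told apart.

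Amino acids are set free inside lysosomes when proteins are broken down, and transporters in the lysosomal membrane export them. The Rag GTPases, held on the membrane by the Ragulator complex, work as dimers of RagA or RagB with RagC or RagD. When amino acids are plentiful they draw mTORC1 to the lysosome, where it is switched on. Active mTORC1 keeps the transcription factor TFEB out of the nucleus. When amino acids run short TFEB enters the nucleus and raises genes of lysosomes and autophagy. Macrophages take up and digest large amounts of protein, so this pathway handles a heavy load in them.

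Library totals ran from 10450043 to 14181343 counts, and values below are CPM, counts scaled to library size with TMM factors. Of 11 macrophage markers, 10 had a mean above 10 CPM, and the mannose receptor MRC1 was low at 1.42 to 3.23 CPM. Their summed level was 5411 to 5770 CPM in the controls and 5471 to 5677 CPM in the knockdown libraries. By edgeR's adjusted p, CD14, ITGAX and CD163 of these were higher and LYZ lower, and the part of this difference in the results was not tested. Of 9 markers of other cell types, 4 had a row and 1 passed 10 CPM, the adhesion molecule PECAM1, which monocytes also express. Mitochondrial transcripts took 2.31% to 3.01% of the counts in the controls and 2.39% to 2.48% in the knockdown libraries, and their part was not tested either. The table has no row called RP11-184M15.1, and its level was not analysed here.

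SLC36A1 moved apart from the other 9 genes in size. Its level was 101, 113 and 111 CPM in control replicates 1, 2 and 3 and 172, 169 and 170.1 CPM in knockdown replicates 1, 2 and 3. The lowest knockdown library lay far above the highest control, and the 3 knockdown libraries lay close together. The means were 108 ± 6.44 CPM and 170.2 ± 1.32 CPM (SD, n = 3 each). The rise was 1.57-fold (95% interval 1.46 to 1.69), a log2 fold change of 0.65 ± 0.05 (SE). The counts behind these values were 1070, 1351 and 1154 in the controls and 2118, 2408 and 2071 in the knockdown libraries. Leaving out any 1 library gave log2 fold changes from 0.60 to 0.68.

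**Figure D1:**
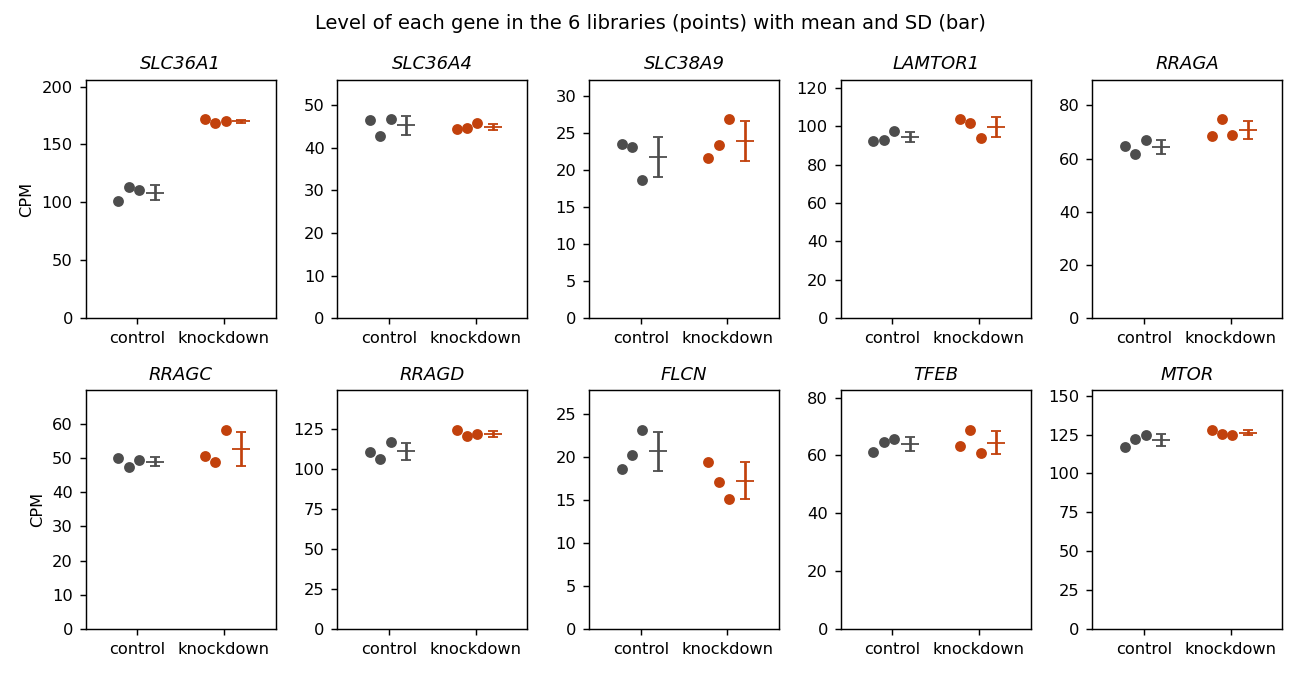
Level in CPM (y axis from 0) of each of the 10 genes in the 3 control and 3 knockdown libraries (points), with the mean and SD (bar). The SLC36A1 points rise from 101 to 113 CPM in the controls to 169 to 172 CPM, while the points of most other genes overlap.

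Of the 10 genes, only SLC36A1 passed 0.05 by the adjusted p of edgeR's quasi-likelihood test, with adjustment over all genes. Of all genes tested 2.83% passed, 1.22% higher and 1.61% lower. The knockdown libraries all lay above the controls for 4 of the 10 genes (SLC36A1, RRAGA, RRAGD and MTOR) and below them for none. Over all genes tested they lay above in 9.61% and below in 10.4%. Since the list was drawn up with this comparison in view, nothing is read from these counts. The median log2 fold change of the 10 genes was 0.09, beside -0.00 for all genes tested. Without SLC36A1 the other 9 ran from -0.26 to 0.14, with 7 above 0 and 2 below. The upper bound of their intervals reached at most 1.28-fold (SLC38A9), and the lower bound for SLC36A1 was 1.46-fold. Because SLC36A1 was chosen for its rise, these bounds are a description and not a test of a difference.

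**Figure D2:**
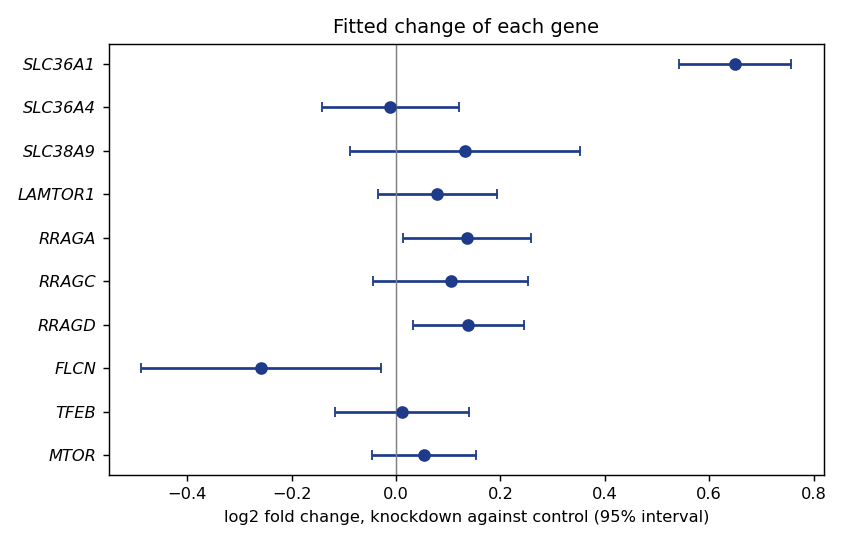
Fitted log2 fold change of each gene, knockdown against control (x axis), with its 95% interval. SLC36A1 stands at 0.65, and the other 9 genes lie between -0.26 and 0.14.

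SLC36A1 (ENSG00000123643.12) lies on chromosome 5 of GRCh38, from 151437046 to 151492381 on the plus strand, with 11 annotated transcripts, 9 of them coding. The 1 annotated gene that overlaps it is RNA5SP197, a ribosomal RNA pseudogene on the opposite strand that touches no exon. Estimated counts can be split between genes that share sequence. Of the 31-base words in the longest coding transcript of SLC36A1, 1.58% also occur in another gene, SLC36A2. The sister transporters SLC36A2 and SLC36A3 lie beside SLC36A1 on chromosome 5 and have no row in the table.

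Genes near SLC36A1 were compared by position. Within 250 kb, 7 other protein-coding genes are annotated, and 3 of them were tested. None of the 3 passed the threshold. GM2A, the cofactor that presents ganglioside to its lysosomal hydrolase, was at 683, 639 and 648 CPM in the controls and 635, 630.1 and 620.0 CPM in the knockdown libraries (log2 fold change -0.06 ± 0.04 SE). ATOX1, a copper chaperone, had a log2 fold change of 0.12 ± 0.07 (SE) and CCDC69 of -0.01 ± 0.07 (SE). FAT2 and SPARC had rows below 1.48 CPM in every library and were not tested.

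RefSeq lists 2 start sites of SLC36A1 with a promoter window (GRCh38.p14), each from 250 bases before to 50 bases after the start. The second is shown because it holds the 6-base E-box word CACGTG, in capitals, at 2 places. E-boxes are the core of the elements that TFEB and its relatives are known to bind. The window is chr5:151447353-151447652 on the plus strand:
SLC36A1: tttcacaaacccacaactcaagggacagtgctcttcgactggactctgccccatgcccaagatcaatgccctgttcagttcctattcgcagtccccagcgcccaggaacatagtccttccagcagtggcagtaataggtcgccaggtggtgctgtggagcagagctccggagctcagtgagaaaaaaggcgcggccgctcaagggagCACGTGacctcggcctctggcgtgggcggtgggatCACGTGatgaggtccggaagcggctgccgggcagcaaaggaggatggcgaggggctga
The words begin 43 and 8 bases before the start. The one nearer the start is the longer palindrome TCACGTGA. The first SLC36A1 window holds no E-box, and the counts, given per gene, do not tell which start was used.

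Of the 10 genes, 8 had promoter windows, and 3 of these 8 held CACGTG in at least 1 window. Among 9780 tested genes with windows 12.8% did, and 2.34% held TCACGTGA, which 1 of the 8 (SLC36A1) held. None of the 8 held that longer word with G before it and C after it, present in 0.92% of tested genes with windows. All words are palindromes, so both strands were searched at once, and each longer word contains the shorter. RRAGA and RRAGD have no entry. The other matches are shown as 30 bases each, LAMTOR1 from chr11:72103445-72103474 and RRAGC from chr1:38859867-38859896, both on the minus strand and written 5′ to 3′ with the E-box in capitals:
LAMTOR1: ctttccccgcatCACGTGcttgcgtgtacg
RRAGC: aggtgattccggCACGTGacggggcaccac
These words begin 165 bases before the LAMTOR1 start and 112 bases before the RRAGC start. A match is a description of the letters, and binding was not measured.

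**Figure D3:**
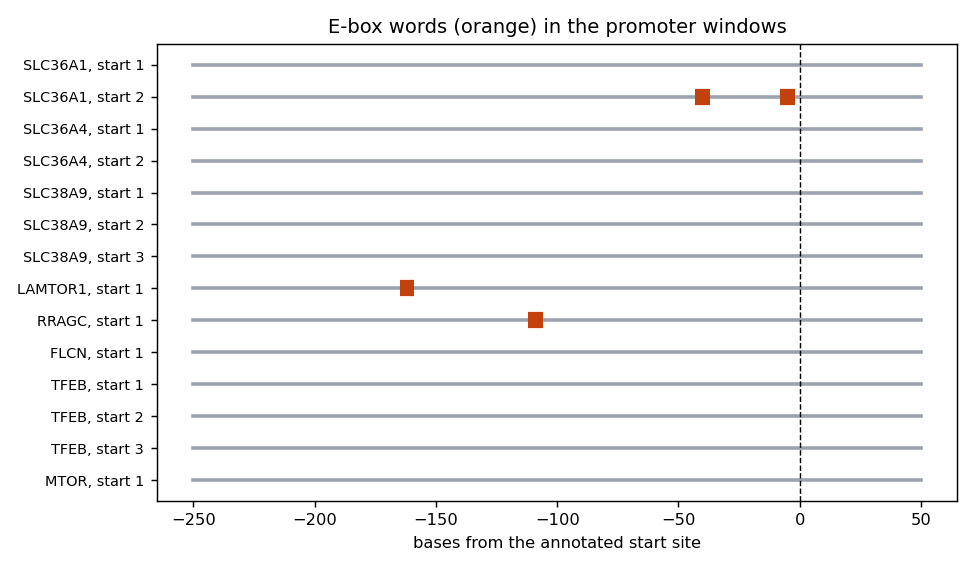
Promoter windows of the 8 genes with an entry (grey lines, 1 for each annotated start), by distance in bases from the start site (dashed line), with E-box words in orange. SLC36A1 has 2 words at its second start, 43 and 8 bases upstream, and LAMTOR1 and RRAGC have 1 each.

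The other amino acid carriers of the list did not show a rise of that size. SLC36A4, a relative of SLC36A1 that carries proline and tryptophan, was at 46.6, 42.8 and 46.7 CPM in the controls and 44.4, 44.8 and 45.7 CPM in the knockdown libraries. These values overlap, and the interval of the change ran from 0.91-fold to 1.09-fold (log2 fold change -0.01 ± 0.06 SE). The ratio of SLC36A1 to SLC36A4, each per base of its longest coding transcript, was 2.26, 2.75 and 2.47 in the controls and 4.02, 3.93 and 3.87 in the knockdown libraries. All 3 knockdown ratios lay above the controls. This follows from the choice of SLC36A1 for its rise beside a nearly level SLC36A4, and it is no separate result. SLC38A9, the arginine sensor that signals lysosomal amino acids to the Rag GTPases, was at 23.5, 23.0 and 18.7 CPM in the controls and 21.6, 23.4 and 26.8 CPM in the knockdown libraries. It was low and variable, and its interval, from 0.94-fold to 1.28-fold, was wide. Its log2 fold change was 0.13, and 0.04 without control replicate 3 and 0.05 without knockdown replicate 3. DDX4 lies over part of SLC38A9 on the opposite strand, exons included, and has no row in the table.

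LAMTOR1, the lipid-anchored subunit that ties Ragulator to the lysosome, was at 92.5, 93.1 and 97.4 CPM in the controls and 104, 102 and 93.7 CPM in the knockdown libraries. Knockdown replicate 3 fell among the controls (log2 fold change 0.08 ± 0.05 SE). LRTOMT overlaps LAMTOR1 on the opposite strand and was at 0.76 to 1.68 CPM over the 6 libraries.

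The Rag GTPase genes all had estimates slightly above 0. RRAGA, encoding RagA, was at 64.6, 61.8 and 66.9 CPM in the controls and 68.4, 74.7 and 68.9 CPM in the knockdown libraries, with no overlap. Its log2 fold change was 0.14 ± 0.06 (SE), with a 95% interval from 0.01 to 0.26. RRAGD, encoding RagD, was at 110.3, 106 and 116 CPM in the controls and 124, 120.4 and 121 CPM in the knockdown libraries. These groups also did not overlap, with a log2 fold change of 0.14 ± 0.05 (SE) and a 95% interval from 0.03 to 0.24. Both lower bounds lie close to no change.

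RRAGC, whose product takes the same place in the dimer as RagD, was at 49.98, 47.4 and 49.3 CPM in the controls and 50.7, 49.0 and 58.1 CPM in the knockdown libraries. Knockdown replicate 3 stood above the others, and the log2 fold change was 0.10 ± 0.07 (SE) with it and 0.03 without it. Of the 31-base words of its longest coding transcript, 42.7% also occur in AL139260.2, an overlapping transcript on the same strand with no row in the table, so counts of RRAGC are less certain. The ratio of RRAGD to RRAGC per base was 1.26 ± 0.05 in the controls and 1.30 ± 0.12 in the knockdown libraries (SD, n = 3 each), a difference smaller than the spread.

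FLCN encodes folliculin, which acts on RagC and RagD to promote their GDP-bound, active form, and it had the lowest estimate of the 10. It was at 18.6, 20.2 and 23.1 CPM in the controls and 19.4, 17.1 and 15.11 CPM in the knockdown libraries. Knockdown replicate 1 lay above control replicate 1, and the log2 fold change was -0.26 ± 0.11 (SE), with an interval from 0.71-fold to 0.98-fold. Without control replicate 3, the highest library, it was -0.17. Of the 31-base words of FLCN, 35.8% also occur in other genes, 2166 in number, and 29.4% occur in the read-through gene AC055811.2. AC055811.2 was at 0 in control replicates 1 and 3 and knockdown replicate 1 and at 1.05 to 1.59 CPM in the other 3 libraries. The sum below covers AC055811.2 only. With the counts of both genes added, the level was 21.2 ± 2.30 CPM in the controls and 18.0 ± 1.47 CPM in the knockdown libraries (SD, n = 3 each). The summed change was -14.8%, beside -16.5% for FLCN alone. MPRIP overlaps the end of FLCN on the opposite strand, at 50.9 to 60.9 CPM.

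TFEB, the transcription factor that mTORC1 holds in the cytoplasm, was at 61.3, 64.6 and 65.8 CPM in the controls and 63.3, 68.8 and 61.0 CPM in the knockdown libraries. The groups overlapped (log2 fold change 0.01 ± 0.06 SE, 95% interval from -0.12 to 0.14). MTOR, the kinase itself, was at 117, 122 and 124.7 CPM in the controls and 128, 126 and 124.9 CPM in the knockdown libraries. The groups did not overlap, but the gap between them, 124.7 against 124.9 CPM, was smaller than the spread within either (log2 fold change 0.05 ± 0.05 SE). Transcript levels do not report the activity of mTORC1 or the location of TFEB, neither of which was measured.

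Levels can be set against each other only per length, and here CPM was divided by the length of the longest coding transcript in kb. In the controls LAMTOR1 was highest at 70.1 CPM per kb, followed by RRAGA at 40.6, TFEB at 24.6, RRAGD at 22.6, SLC36A1 at 18.8, RRAGC at 17.9, MTOR at 14.0, SLC36A4 at 7.54, SLC38A9 at 7.43 and FLCN at 5.67. The control libraries of neighbours in this order overlapped for TFEB and RRAGD, for SLC36A1 and RRAGC, and for SLC36A4 and SLC38A9. In the knockdown libraries SLC36A1 reached 29.4 CPM per kb and stood at rank 3 of the 10 in place of rank 5, above RRAGD (24.9) and TFEB (24.8). The change of rank follows from the choice of SLC36A1 for its rise and is no separate result. Which transcripts were present is unknown, so these levels depend on the length chosen.

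**Figure D4:**
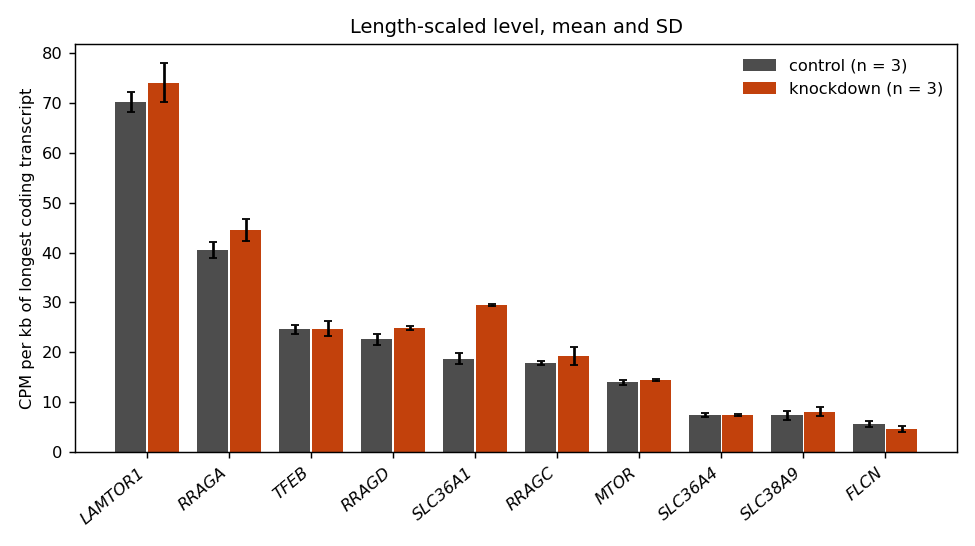
Mean level per kb of the longest coding transcript (bars from 0, in CPM per kb) with the SD over 3 libraries, in the order of the controls (grey) beside knockdown (orange). SLC36A1 goes from 18.8 to 29.4 CPM per kb, past RRAGD and TFEB.

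The rest of the pathway was taken from lists by role, 112 entries of which 108 were tested. Of these 108 genes, 2 rose and 1 fell past an adjusted p of 0.05 in edgeR, or 2.78%, beside 2.83% of all genes tested. Their median log2 fold change was -0.00, as for all genes. Each of the 3 called genes was lost when some single libraries were left out.

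Among transporters, none of 7 lysosomal amino acid and peptide carriers passed, with log2 fold changes from -0.07 to 0.06. They include CTNS, the cystine exporter, and MFSD12, which carries cysteine into lysosomes and related organelles. None of 12 amino acid transporters of the plasma membrane passed in edgeR either, with a range from -0.17 to 0.23. Of these 12, SLC7A11, the cystine-glutamate exchanger, had the lowest adjusted p. It was at 702, 718 and 732 CPM in the controls and 641, 605 and 670.1 CPM in the knockdown libraries. Its 3 knockdown libraries all lay below the controls (log2 fold change -0.17, SE 0.05). Its adjusted p was 0.0690 in edgeR and 0.0164 in DESeq2. Here and below, the adjustment covered 13405 genes in edgeR but 9111 in DESeq2, so the values are not like for like.

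All 5 other Rag and Ragulator genes, RRAGB and LAMTOR2 to LAMTOR5, lay between -0.03 and 0.13, none past the threshold. None of 12 genes of GATOR1, GATOR2 and KICSTOR, the complexes that pass amino acid signals to RagA and RagB, was called either. Their median was 0.01.

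Among 9 tested sensors and Rag regulators, 1 rose. SESN2, the leucine sensor Sestrin 2, which is also a stress-induced gene, was at 32.8, 39.8 and 37.5 CPM in the controls and 44.2, 46.9 and 43.4 CPM in the knockdown libraries. The groups did not overlap (log2 fold change 0.29, SE 0.07; adjusted p in edgeR 0.0498). Its adjusted p ranged from 0.0287 to 0.248 over the 13 alternatives and passed in none of the 6 that left out 1 library. CASTOR1, an arginine sensor of the cytosol, was at 3.59, 3.85 and 3.18 CPM in the controls and 2.35, 2.31 and 2.05 CPM in the knockdown libraries. It had the lowest log2 fold change of the 108, -0.66 ± 0.21 (SE), at counts of 25 to 46 per library, and did not pass (edgeR adjusted p = 0.12).

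None of 8 genes of mTORC1, its inhibitor TSC and the activator RHEB passed, and none of 10 mTORC1 substrates did. The medians were -0.03 and -0.04. The 18 subunits of the V-ATPase, the proton pump whose gradient drives SLC36A1, had a median of 0.05 with 1 lower and none higher. ATP6V1C1, a subunit of the pump's stator, which links its catalytic head to the membrane part, fell from 205, 193 and 177 CPM in the controls to 166, 157 and 165 CPM in the knockdown libraries (log2 fold change -0.23, SE 0.05; adjusted p in edgeR 0.0284). Its adjusted p ran from 0.0038 to 0.184 over the 13 alternatives and missed the threshold without control replicate 2 (0.142) and without knockdown replicate 1 (0.0824), 2 (0.184) or 3 (0.106). TCIRG1, a subunit of the membrane part, was at 529.5, 563 and 565 CPM in the controls and 608, 639 and 596 CPM in the knockdown libraries. Its groups did not overlap (log2 fold change 0.15, SE 0.05), and its adjusted p was 0.0929 in edgeR and 0.0277 in DESeq2.

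The relatives of TFEB did not pass: TFE3 had a log2 fold change of 0.05, MITF of -0.09 and TFEC of 0.00. Of 19 TFEB target genes of lysosome and autophagy, 1 rose and none fell past the threshold in edgeR, with a median of -0.01. SQSTM1, the autophagy receptor p62, was at 998, 962 and 912 CPM in the controls and 844, 891 and 832 CPM in the knockdown libraries. It was lower in both tests, with a log2 fold change of -0.16 in each. Its adjusted p was 0.0825 in edgeR and 0.0185 in DESeq2.

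**Figure D5:**
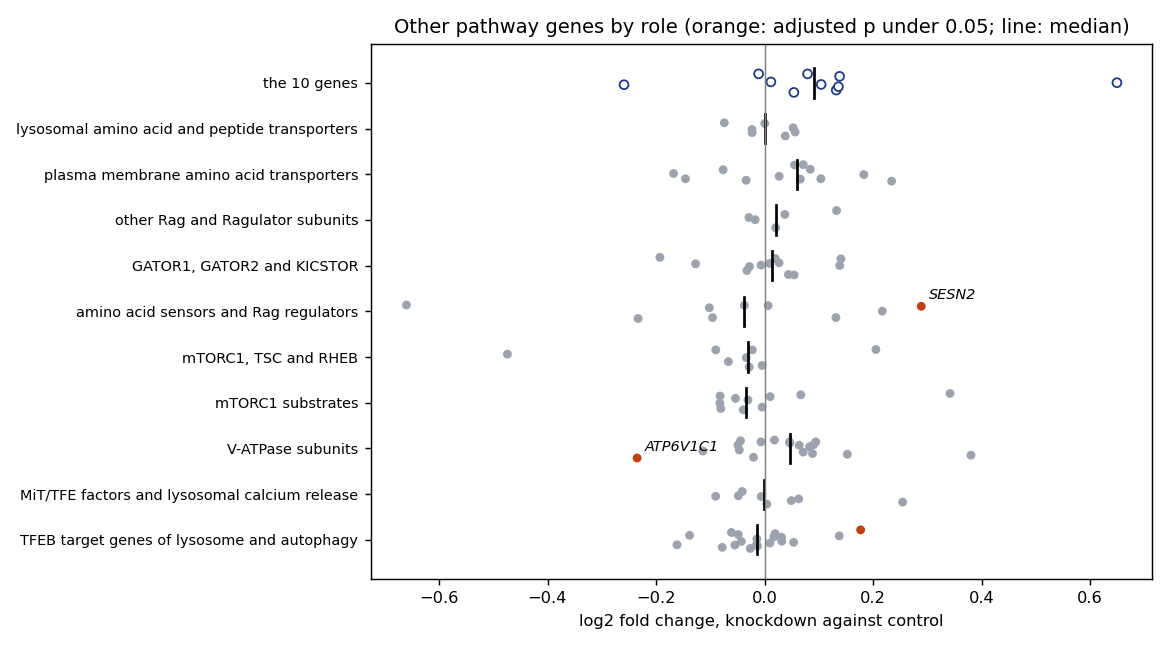
Log2 fold change, knockdown against control (x axis), of the 10 genes (open circles) and of 108 other pathway genes by role (grey, or orange where the adjusted p was under 0.05), with each list's median as a black line. The list medians lie near 0, and SESN2 and ATP6V1C1 are named among the 3 called genes.

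Among 198 solute carrier genes tested, 6 were higher and 4 lower, or 5.05% beside 2.83% of all genes tested. The 6 include SLC36A1, which was chosen for its rise. Of the others called higher, SLC31A2 had the largest change (log2 fold change 0.33, SE 0.06; adjusted p in edgeR 0.0042). The lysosomal sialic acid exporter SLC17A5 was at 172, 144 and 147 CPM in the controls and 177, 189 and 181 CPM in the knockdown libraries. Its log2 fold change was 0.25 (SE 0.06; adjusted p in edgeR 0.0414), and control replicate 1 stood near the knockdown libraries. Both genes were named after their values were seen.

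The genes whose pattern over the 6 libraries was most like that of SLC36A1 were found by Pearson's r of log2 CPM among the 7621 genes whose mean log2 CPM was 4 or more. They were RASSF5 (r = 0.999), COL4A1 (0.996), CCDC93 (0.995), EIF4G3 (0.995) and GSDMD (0.991). Their own log2 fold changes were smaller, from 0.09 for GSDMD, the pore-forming gasdermin D, to 0.21 for RASSF5, a Ras-binding adaptor. With the 6 libraries falling in 2 groups, r over 0.95 was reached by 88 genes, and any gene with a tight difference in the same direction scores high. Of the pathway genes, CASTOR1 had the lowest r (-0.943). Of the other 9 genes of the list, RRAGD had the highest r with SLC36A1 (0.842) and FLCN the lowest (-0.623). By Spearman's rho the ends of this order changed, with MTOR highest (0.89, RRAGD 0.83) and SLC36A4 lowest (-0.54, FLCN -0.37).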

How the data were processed

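The genes and pathway lists were chosen with earlier results of these data known. Polyadenylated RNA of 3 control and 3 knockdown libraries was grouped by sample titles. The authors deposited estimated counts per gene symbol, all whole numbers, with a lowest row sum of 10. The submitters' processing notes name hg38, DESeq2 and, per the same notes, Salmon 0.11.2, with no roles. Not given in the sources used here are the rounding of estimates and the use of strand.

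The test was the two-sided quasi-likelihood test of edgeR 4.0.16 with a group term, after filterByExpr and TMM scaling. Its p-values were adjusted by Benjamini-Hochberg over 13405 genes, with a threshold of 0.05. The SE is the log2 fold change over the root of F, an approximation, and the 95% interval uses it with edgeR's degrees of freedom. Likeness used log2 CPM with a prior count of 2. Named genes were the 10 listed, the called pathway genes, the 5 most alike and the pathway extremes of r. One gene that this rule names is not reported here and stays in the counts. Genes near the threshold and further solute carriers were added after their values were seen. Of 155 list entries 147 had a row, 5 under an older symbol.

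Replicates were no duplicates (chi-square per degree of freedom 2.79 to 6.79 between controls and 1.90 to 2.28 between knockdown libraries). On simulated data, with 200 of 13405 genes changed, the knockdown comparison recovered 68.7% of 1.5-fold and 50.7% of 1.25-fold changes. False calls made up 5.38% of calls. The simulated spread followed only its trend with gene level, without extra variation of single genes or libraries. These rates may therefore not hold for the real libraries. Positions, overlaps and transcript words came from GENCODE 29, promoters from RefSeq. Alternatives were RLE and upper-quartile normalization, DESeq2 1.42.0, limma-voom 3.58.1, 2 other filters, the replicate number as a block, and leaving out each library. R 4.3.3, Python 3.11.15, pandas 2.3.3, scipy 1.17.1 and matplotlib 3.10.9 were used.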

Additional observations from a re-analysis of the deposited data

How the results depend on the processing

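For each of the 10 genes, the log2 fold change moved by no more than the spread between replicates under all 13 alternatives. Leaving out 1 of 3 libraries can hardly move a group mean by more than that spread. For those alternatives this outcome was nearly fixed beforehand, and nothing is read from it. It ran from 0.60 to 0.68 for SLC36A1, which was chosen for its rise in these libraries, so the range is a description. Leaving out 1 library moved 5 smaller estimates by over 1.5 times with no change of sign. SLC38A9 ran from 0.04 (without control replicate 3) to 0.20 (without knockdown replicate 1), and LAMTOR1 from 0.05 (knockdown 1) to 0.12 (knockdown 3). RRAGC ran from 0.03 (knockdown 3) to 0.16, FLCN from -0.35 to -0.17 (control 3) and MTOR from 0.03 (control 1) to 0.08. RRAGA ran from 0.09 to 0.17 and RRAGD from 0.11 to 0.18. The sign changed in 2 alternatives each for SLC36A4 (-0.05 to 0.01) and TFEB (-0.04 to 0.05), which also moved by over 1.5 times. The number of genes called among 13405 was 379, and 139 to 542 with 1 library left out. It fell to 165 without control replicate 2, and to 194, 139 and 156 without knockdown replicates 1, 2 and 3. It rose to 542 without control replicate 1 and to 488 without control replicate 3. Each of these counts rests on 1 library fewer, and the cause of the differences between libraries was not tested. The pathway genes called higher, 2 in the main test, were 1 in limma-voom, 1 with no filter and 0 to 1 with 1 library left out. Those called lower, 1 in the main test, were 3 in DESeq2 (ATP6V1C1, SLC7A11 and SQSTM1). They were 0 to 5 with 1 library left out (5 without control replicate 1). With the replicate number as a block, 3 pathway genes were lower (SLC7A11 and SQSTM1 beside ATP6V1C1) and 488 genes were called in all. Deviations of same-numbered libraries correlated at 0.05, 0.10 and 0.08, and each library correlated best with its own number, a hint from the data and not from the design, so the block was not used. With Spearman's rho in place of r, RASSF5 stayed at 1.00. The likeness of COL4A1 (0.77), CCDC93, EIF4G3, GSDMD and CASTOR1 lay closer to 0 than by r. At these depths a gene at 20 CPM, such as FLCN, rests on 184 to 244 counts per library.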

Other observations

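HBA1, an alpha globin gene and one of the markers of other cell types, had 0 counts in the 3 control libraries, 1 and 2 in knockdown replicates 1 and 2, and 89 in knockdown replicate 3, or 7.31 CPM. COL1A1, a fibroblast collagen, was at 1.09 to 2.12 CPM in all 6 libraries, and CD79A, of B cells, at 0.08 to 0.28 CPM.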
